A study of Mus musculus with 46 samples.

Results

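The 36 genes described here encode the folding, translocation and quality-control machinery of the endoplasmic reticulum (ER) and the unfolded protein response that regulates it. They were chosen by name from the gene symbols of the array's annotation, and where a gene had more than 1 probe set the brightest on average was taken. All 36 were measured, out of 21335 genes named by the 23410 probe sets that carry a symbol. The list holds 9 chaperones and co-chaperones, 4 disulfide isomerases, 2 secreted stress proteins, 4 translocon genes, 8 genes of ER-associated degradation, 3 stress sensors, 3 transcription factors and 3 genes of the ATF4 and CHOP branch.

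Livers came from SKH:QS mice, a hairless stock, in 2 experiments that were run apart, 1 with virgin mice and 1 with pregnant mice at about 17 days of gestation. In each experiment there were 4 arms. Mice received on the back, 6 times over 4 days, a sunscreen with no particles (formulation), the sunscreen with 68ZnO microparticles (micro ZnO) or the sunscreen with 68ZnO nanoparticles (nano ZnO), and the fourth arm was untreated. Livers were taken on day 5 and RNA was measured on Affymetrix whole-transcript arrays, 1 per mouse. The virgin arms held 6 formulation, 6 micro ZnO, 6 nano ZnO and 6 untreated mice, and the gestation arms held 6, 5, 6 and 5. All mice, untreated ones included, were housed singly, and collars kept treated mice from swallowing sunscreen. The labels do not say whether untreated mice wore collars or were handled like treated ones.

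Values are log2 intensities. A value after ± is the standard error of a log2 difference. Differences were tested with limma, adjusted by the Benjamini-Hochberg method over all 23410 probe sets, and a gene was called at an adjusted p under 0.05. Array medians lay between 4.66 and 4.90 in virgin mice and between 3.98 and 4.12 in pregnant mice, so levels of the 2 experiments were not set against each other. The labelled tissue was borne out by its hepatocyte marker list, such as Alb and Apoa1, with a mean log2 level between 12.2 and 12.4 in virgin mice. In whole liver, fewer cells of a type and less RNA per cell cannot be told apart.

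The liver exports large amounts of plasma protein, and each nascent chain enters the ER through the Sec61 channel, is bound by chaperones such as BiP (Hspa5) and gains disulfide bonds from the protein disulfide isomerases. Chains that fail to fold are returned to the cytosol and degraded. When unfolded protein accumulates, the sensors IRE1 (Ern1), PERK (Eif2ak3) and ATF6 raise the transcription factors XBP1, ATF4 and processed ATF6, which in turn raise chaperones, degradation genes and amino acid genes.

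A few DNA elements carry much of that control and are shown because some of these genes share them. The genes were chosen by name for their known roles, so their share of matches is no independent result. ATF6 and XBP1 bind the ER stress response element (ERSE, searched as CCAAT and CCACG with any 9 bases between) and its variant ERSE-II (ATTGG and CCACG with any 1 base between), and ATF4 with CHOP or C/EBP binds the C/EBP-ATF response element (CARE, searched as TGATGNAA). An XBP1 element, UPRE, was searched as TGACGTGG. RefSeq promoter windows of GRCm38.p6, from 250 bases before to 50 bases after each annotated start, were searched on both strands for exact matches. A window was given for 30 of the 36 genes, and Hyou1, Manf, Derl1, Atf6, Sec61a1 and Ssr2 were not matched. ERSE occurred in 9 of the 30 genes, against 39 of all 32851 windows (0.119%). ERSE-II occurred in 2 of the 30, against 12 windows (0.0365%). CARE occurred in 3 of the 30, against 1304 windows (3.97%), and UPRE in 0 of the 30, against 222 windows (0.676%). Some genes have several windows. Counted by gene, with the 30 included, ERSE occurred in 37, ERSE-II in 12, CARE in 1219 and UPRE in 193 of 27025 genes. A match is a run of letters and not a measured binding site. The matches follow with their coordinates and the strand of the gene, each read 5′ to 3′ on the gene's strand. Capitals mark the fixed letters of the element, and a match that starts with CGTGG, TTg or TTa is the element read on the opposite strand.
Hspa5 ERSE (chr2:34772025-34772043, plus strand): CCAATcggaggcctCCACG
Hsp90b1 ERSE (chr10:86705638-86705656, minus strand): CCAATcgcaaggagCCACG
Hsp90b1 ERSE (chr10:86705533-86705551, minus strand): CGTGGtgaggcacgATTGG
Pdia6 ERSE (chr12:17266491-17266509, plus strand): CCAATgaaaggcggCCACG
Calr ERSE (chr8:84847075-84847093, minus strand): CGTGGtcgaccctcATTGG
Canx ERSE (chr11:50325800-50325818, minus strand): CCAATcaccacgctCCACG
Dnajb11 ERSE-II (chr16:22857852-22857862, plus strand): ATTGGcCCACG
Dnajc3 ERSE (chr14:118937827-118937845, plus strand): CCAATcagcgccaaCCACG
Creld2 ERSE (chr15:88819520-88819538, plus strand): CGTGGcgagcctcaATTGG
Herpud1 ERSE-II (chr8:94386377-94386387, plus strand): ATTGGgCCACG
Herpud1 CARE (chr8:94386317-94386324, plus strand): TTgCATCA
Syvn1 ERSE (chr19:6046532-6046550, plus strand): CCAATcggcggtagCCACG
Derl3 ERSE (chr10:75893242-75893260, plus strand): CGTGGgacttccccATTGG
Trib3 CARE (chr2:152344039-152344046, minus strand): TTaCATCA
Asns CARE (chr6:7693225-7693232, minus strand): TGATGaAA

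The 250 bases upstream of the annotated start are printed for 5 genes whose values recur below: Hspa5 and Hsp90b1, the most studied ERSE genes, Pdia6, which was lower in all 3 virgin sunscreen arms, and Herpud1 and Asns, which were the genes higher in the virgin nano ZnO arm. Capitals again mark the fixed letters of ERSE, ERSE-II and CARE.
Hspa5 (chr2:34771840-34772089, plus strand): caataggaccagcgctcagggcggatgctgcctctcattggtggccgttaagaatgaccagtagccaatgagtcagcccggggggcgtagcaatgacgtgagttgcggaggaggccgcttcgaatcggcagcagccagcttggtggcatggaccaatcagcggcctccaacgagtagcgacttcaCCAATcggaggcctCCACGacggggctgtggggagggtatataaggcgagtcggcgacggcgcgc
Hsp90b1 (chr10:86705445-86705694, minus strand): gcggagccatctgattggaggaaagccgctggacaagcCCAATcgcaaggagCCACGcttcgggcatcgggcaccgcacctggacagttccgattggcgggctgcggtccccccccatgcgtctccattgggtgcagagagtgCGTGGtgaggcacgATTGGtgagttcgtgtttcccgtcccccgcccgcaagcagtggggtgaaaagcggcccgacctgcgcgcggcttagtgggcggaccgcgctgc
Pdia6 (chr12:17266339-17266588, plus strand): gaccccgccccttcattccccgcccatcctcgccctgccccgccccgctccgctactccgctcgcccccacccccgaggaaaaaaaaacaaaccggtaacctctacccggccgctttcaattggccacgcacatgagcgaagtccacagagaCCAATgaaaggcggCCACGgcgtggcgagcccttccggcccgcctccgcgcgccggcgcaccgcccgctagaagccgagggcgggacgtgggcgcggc
Herpud1 (chr8:94386179-94386428, plus strand): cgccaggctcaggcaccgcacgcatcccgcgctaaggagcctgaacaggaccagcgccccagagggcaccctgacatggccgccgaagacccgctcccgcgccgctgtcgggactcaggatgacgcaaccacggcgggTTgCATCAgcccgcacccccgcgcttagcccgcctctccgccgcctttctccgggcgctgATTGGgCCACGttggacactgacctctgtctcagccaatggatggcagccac
Asns (chr6:7693210-7693459, minus strand): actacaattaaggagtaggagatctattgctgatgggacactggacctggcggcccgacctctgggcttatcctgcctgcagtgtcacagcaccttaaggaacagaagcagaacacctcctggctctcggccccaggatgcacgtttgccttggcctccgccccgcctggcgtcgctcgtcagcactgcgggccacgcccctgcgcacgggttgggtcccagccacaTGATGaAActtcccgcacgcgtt

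**Figure D1:**
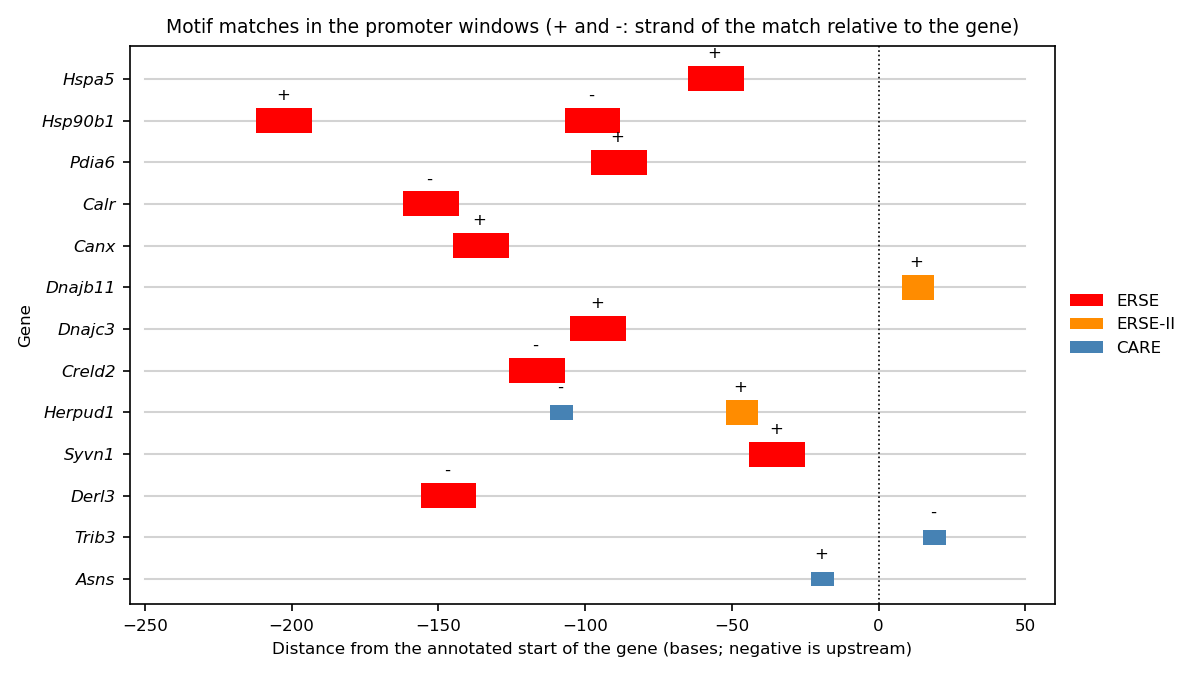
Position of each exact match to ERSE, ERSE-II or CARE in the promoter windows of the 13 genes that hold one, in bases from the annotated start on the horizontal axis. The matches of the ERSE and ERSE-II elements lie upstream of the start except that of Dnajb11, and Hsp90b1 holds 2.

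In virgin mice many folding, translocation and degradation genes were lower with formulation, which holds no particles, and with nano ZnO, and fewer passed the test with micro ZnO. With formulation against untreated, 2 of the 36 genes were called higher and 19 lower, beside 11.5% higher and 15.0% lower over the whole table of probe sets. The median difference over the 36 genes was -0.33, against 0.03 over all probe sets tested. In 9 of the 36 every formulation mouse lay below every untreated mouse, which held for 6.69% of all probe sets, and with nano ZnO this was so for 4 genes (3.22%) and with micro ZnO for 0 (2.26%). With nano ZnO against untreated, 2 genes were called higher and 18 lower, against 4.77% and 7.18% of all probe sets, and the median difference was -0.31. With micro ZnO against untreated, 0 were called higher and 5 lower, against 1.63% and 2.80%, and the median difference was -0.23. The 3 comparisons share their untreated mice and are not independent of each other.

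**Figure D2:**
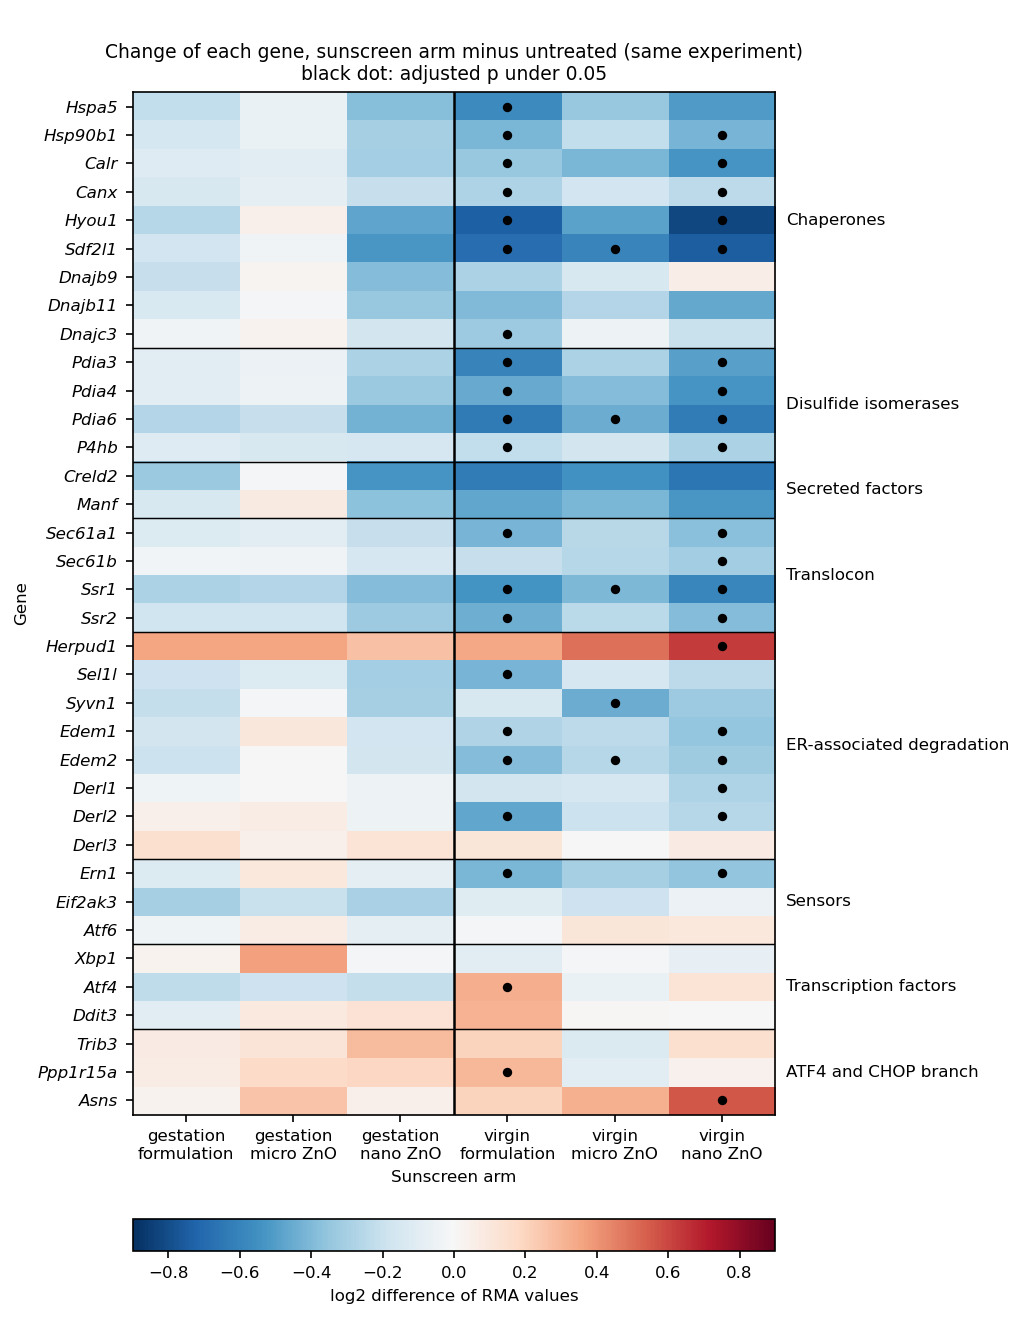
Log2 difference of each of the 36 genes (rows, grouped by role) between each sunscreen arm and the untreated arm of the same experiment (columns), with a black dot where the adjusted p was under 0.05. The virgin columns are mostly blue among chaperones, isomerases, translocon and degradation genes, with 21, 5 and 20 dots for formulation, micro ZnO and nano ZnO, and the gestation columns hold 0 dots.

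Bright probe sets were called lower more often than all probe sets in the virgin sunscreen arms. The 36 genes were therefore split at their own median level. Of the 1925 probe sets whose mean in virgin mice was at least 8.35, the median over the 36 genes, 41.0% were called lower and 3.84% higher with formulation. Among the 18 of the 36 genes at or above that level 15 were called lower (83.3%), and among the other 18 there were 4 lower and 2 higher. With micro ZnO 1 of the 18 bright genes (5.56%) was called lower, against 7.95% of the bright probe sets. With nano ZnO 13 of the 18 bright genes (72.2%) were called lower, against 25.1% of the bright probe sets. The median difference over the bright probe sets was -0.15 with formulation, -0.07 with micro ZnO and -0.10 with nano ZnO. Over the 18 bright genes it was -0.41, -0.23 and -0.36. This split was chosen after the values were seen and was not tested. The arrays themselves were narrower in the sunscreen arms: the interquartile range of log2 values averaged 2.83 ± 0.05 with formulation, 2.91 ± 0.03 with micro ZnO, 2.90 ± 0.06 with nano ZnO and 2.97 ± 0.07 in untreated mice (SD, n = 6 each). With each array's interquartile range as a covariate 0 of the 36 genes were called with formulation, 0 with micro ZnO and 4 with nano ZnO, and the medians were -0.10, -0.13 and -0.24. The calls over all 23410 probe sets were then 179, 529 and 966, against 6203, 1036 and 2796 without the covariate. The interquartile range was 2.76 to 2.89 with formulation and 2.90 to 3.09 in untreated mice, without overlap. Array width and arm thus cannot be told apart for formulation by this covariate. Further quantile normalization, which equalises the arrays of an experiment, was a separate setting. The medians over the 36 genes were then -0.24 with formulation, -0.20 with micro ZnO and -0.27 with nano ZnO. The calls over all 23410 probe sets were then 3971, 838 and 1984.

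Among the chaperones, 7 of 9 were called lower with formulation, 1 with micro ZnO and 5 with nano ZnO, and 0 were called higher. Hyou1, an Hsp110-family nucleotide exchange factor of BiP, ranged from 8.05 through a median of 8.55 to 9.11 with formulation, from 7.85 through 8.48 to 9.32 with nano ZnO, and from 8.89 through 9.22 to 9.77 in untreated mice. In each of these sunscreen arms 5 of 6 mice lay below every untreated mouse. The level was 0.602 times that of untreated mice with formulation (-0.73 ± 0.20, limma adjusted p = 0.0109) and 0.568 times with nano ZnO (-0.82 ± 0.20, adjusted p = 0.0109). With micro ZnO the difference was -0.48 ± 0.20 and was not called (adjusted p = 0.171).

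Sdf2l1, a small soluble partner of the ER chaperone complex, was called lower in all 3 arms. It ranged from 6.72 through 6.82 to 7.29 with formulation, from 6.62 through 6.99 to 7.57 with micro ZnO, from 6.60 through 6.79 to 7.44 with nano ZnO, and from 7.13 through 7.42 to 8.37 in untreated mice. In every sunscreen arm 5 of 6 mice were below all untreated mice, and the untreated arm had the widest range. The differences were -0.69 ± 0.17 with formulation (limma adjusted p = 0.00575), -0.59 ± 0.17 with micro ZnO, just under the threshold (0.04997), and -0.74 ± 0.17 with nano ZnO (0.00746).

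Hspa5, which encodes BiP, the Hsp70 of the ER, ranged from 10.03 through 10.47 to 10.88 with formulation and from 10.57 through 11.00 to 11.50 in untreated mice. The arms overlapped, with 3 of 6 formulation mice below every untreated mouse. The difference was -0.57 ± 0.19, a level 0.672 times that of untreated mice (limma adjusted p = 0.0257). This call rested on single mice, since it was lost without formulation mouse 2, 5 or 6 or untreated mouse 1 or 4, with differences of -0.55 to -0.48 and adjusted p of 0.0529 to 0.0746. With nano ZnO Hspa5 ranged from 9.87 through 10.45 to 11.19, and its difference of -0.51 ± 0.19 was not called (adjusted p = 0.0729), but was without nano ZnO mouse 6 (-0.64, 0.0190) or untreated mouse 2 (-0.60, 0.0363). With micro ZnO the difference was -0.34 ± 0.19 (adjusted p = 0.300). With a score of circadian clock genes as a covariate the Hspa5 differences were -0.35 with formulation, no longer called, and 0.17 with micro ZnO and 0.06 with nano ZnO, both turned in sign and not called. That score did not overlap between untreated mice and either particle arm, so it cannot be told apart from those arms.

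Hsp90b1, which encodes GRP94, the Hsp90 of the ER, was lower with formulation by a smaller amount. It ranged from 10.56 through 10.93 to 11.07 with formulation, from 10.66 through 10.81 to 11.32 with nano ZnO, and from 11.06 through 11.24 to 11.58 in untreated mice. In both sunscreen arms 5 of 6 mice were below every untreated mouse. The differences were -0.41 ± 0.12 (limma adjusted p = 0.0126) and -0.42 ± 0.12 (0.0205), and the nano ZnO call was lost without nano ZnO mouse 3 or 4 or untreated mouse 1 or 4 (-0.38 to -0.36, adjusted p of 0.0533 to 0.0613). With micro ZnO the difference was -0.22 ± 0.12 (0.277).

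The lectin chaperones Calr and Canx, which hold glycoproteins for refolding, were called lower with formulation and nano ZnO. The co-chaperone Dnajc3, an inhibitor of PERK in the mouse, was called lower with formulation. For Calr the difference was -0.34 with formulation (limma adjusted p = 0.0422) and -0.53 with nano ZnO (0.00623). For Canx all 6 formulation mice were below all untreated mice. Of these calls, that of Calr with formulation was lost without any of 7 arrays (adjusted p of 0.0513 to 0.102), that of Canx with nano ZnO without any of 6 (0.0544 to 0.0875) and that of Dnajc3 without any of 3 (0.0517 to 0.0633). The J-domain co-chaperones Dnajb9 and Dnajb11 were called in 0 of the 3 arms.

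All 4 disulfide isomerases were called lower with formulation and with nano ZnO, and 1 with micro ZnO. These enzymes form and rearrange disulfide bonds in secretory proteins. Pdia6 ranged from 9.18 through 9.47 to 9.75 with formulation, from 9.42 through 9.61 to 9.98 with micro ZnO, from 9.25 through 9.43 to 9.83 with nano ZnO, and from 9.78 through 10.12 to 10.37 in untreated mice. Every formulation mouse, 4 of 6 micro ZnO mice and 5 of 6 nano ZnO mice were below every untreated mouse. The differences were -0.64 ± 0.12 with formulation (limma adjusted p = 0.000612), -0.45 ± 0.12 with micro ZnO (0.0298) and -0.63 ± 0.12 with nano ZnO (0.00157).

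Pdia3, the isomerase that works with calnexin and calreticulin on glycoproteins, ranged from 9.47 through 10.19 to 10.35 with formulation and from 10.51 through 10.62 to 10.87 in untreated mice. The 2 arms did not overlap, and the difference was -0.60 ± 0.14 (limma adjusted p = 0.00377). With nano ZnO it was -0.49 ± 0.14 (0.0273), a call lost without nano ZnO mouse 3, 4 or 5 or untreated mouse 1 or 4 (-0.46 to -0.44, 0.0517 to 0.0765). Pdia4 was lower by the formulation difference of -0.46 ± 0.13 (0.0102) and the nano ZnO difference of -0.53 ± 0.13 (0.00784). That rests on its bright probe set. The dim one, with means of 4.15 with formulation, 4.31 with nano ZnO and 4.13 in untreated mice, was not called, and with both averaged neither call held (-0.22, 0.155, and -0.18, 0.325). P4hb, the canonical isomerase, was also called lower in both arms without overlap with untreated mice.

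**Figure D3:**
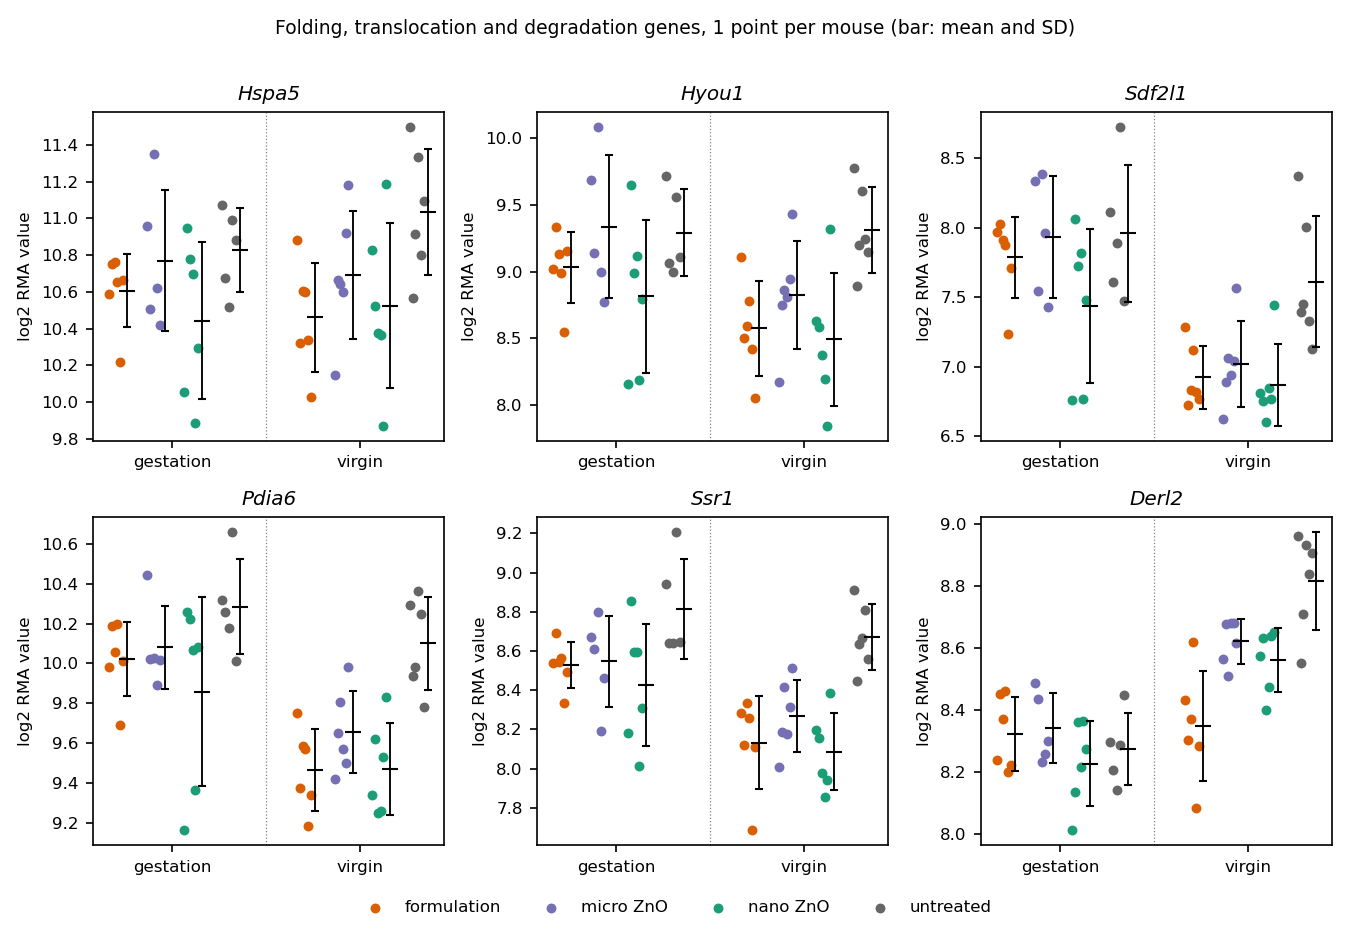
Log2 values of Hspa5, Hyou1, Sdf2l1, Pdia6, Ssr1 and Derl2 in every mouse (points), with the mean and SD of each arm (bars), for the gestation experiment on the left and the virgin experiment on the right of each panel. In virgin mice the sunscreen arms sit below the untreated arm, without overlap for Pdia6 and Ssr1 with formulation, and in pregnant mice the arms overlap.

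The secreted stress proteins Creld2 and Manf, both released from ER-stressed cells, were lower on average but varied widely between mice, and 0 of 2 were called in any arm. Creld2 ranged from 6.70 through 7.25 to 7.78 with formulation and from 7.24 through 7.56 to 8.94 in untreated mice. Its difference was -0.63 ± 0.25 with formulation (limma adjusted p = 0.0644). For Manf it was -0.47 ± 0.19 (0.0623). These 2 and other members that were not called are given here after their values were seen.

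Of the 4 translocon genes, 3 were called lower with formulation, 1 with micro ZnO and 4 with nano ZnO. Ssr1, a subunit of the translocon-associated protein complex, ranged from 7.69 through 8.19 to 8.33 with formulation, from 8.01 through 8.25 to 8.51 with micro ZnO, from 7.86 through 8.07 to 8.39 with nano ZnO, and from 8.45 through 8.65 to 8.91 in untreated mice. All formulation and nano ZnO mice, and 5 of 6 micro ZnO mice, lay below all untreated mice. The differences were -0.54 ± 0.11 with formulation (limma adjusted p = 0.00106), -0.40 ± 0.11 with micro ZnO (0.0318) and -0.59 ± 0.11 with nano ZnO (0.00136).

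Ssr2, another subunit of that complex, and Sec61a1, the pore of the Sec61 channel, were both called lower with formulation. The difference was -0.44 ± 0.10 for Ssr2 (limma adjusted p = 0.00235) and -0.42 ± 0.09 for Sec61a1 (0.00131), and neither gene's formulation mice overlapped untreated mice. With nano ZnO the differences were -0.39 ± 0.10 (0.0115) and -0.38 ± 0.09 (0.00635). Sec61b, a small subunit of the channel, has 3 probe sets. The brightest missed the threshold with formulation (-0.21, 0.0637), the other two were called lower (-0.32, 0.0123, and -0.29, 0.0175), and all 3 were called lower with nano ZnO. The nano ZnO call of the brightest was lost without untreated mouse 1 (-0.23, 0.0512).

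The degradation genes split. Of 8, 4 were called lower with formulation, 2 with micro ZnO and 4 with nano ZnO, and 1 was called higher with nano ZnO. Derl2, a membrane protein of the retrotranslocation complex, ranged from 8.08 through 8.34 to 8.62 with formulation and from 8.55 through 8.87 to 8.96 in untreated mice, and 5 of 6 formulation mice were below every untreated mouse. The difference was -0.47 ± 0.08 (limma adjusted p = 0.000313). Sel1l, the adaptor of the ubiquitin ligase Hrd1, was lower with formulation by a difference of -0.42 ± 0.10 (0.00303), with 4 of 6 mice below all untreated mice. Edem1 and Edem2, mannosidase-like proteins that mark glycoproteins for disposal, were called lower with formulation and nano ZnO, and Derl1 with nano ZnO. Derl2 was also called lower with nano ZnO (-0.25, 0.0383), a call lost without any of 7 arrays (0.0557 to 0.0980).

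Syvn1, which encodes Hrd1 itself, was called with micro ZnO and in 0 of the other two arms. It ranged from 7.23 through 7.32 to 7.43 with micro ZnO and from 7.37 through 7.70 to 8.32 in untreated mice, with 3 of 6 below all untreated mice, a difference of -0.45 ± 0.12 (limma adjusted p = 0.0298). Edem2 was the remaining gene called with micro ZnO (-0.25 ± 0.07, 0.0433). Each of the 5 micro ZnO calls was lost without any 1 of 4 to 9 arrays, and the count was 0 without micro ZnO mouse 1, untreated mouse 1 or untreated mouse 4. It was 1 without micro ZnO mouse 5 or untreated mouse 5, 2 without micro ZnO mouse 4 or untreated mouse 3, and 3 without micro ZnO mouse 2 or 3. Derl3 was called in 0 of the 3 arms.

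Herpud1, an ER membrane protein that brings substrates to the degradation complex, went the other way. It ranged from 10.22 through 10.69 to 11.00 with formulation, from 10.10 through 10.90 to 11.33 with micro ZnO, from 10.49 through 10.92 to 11.44 with nano ZnO, and from 9.96 through 10.28 to 10.66 in untreated mice. In the nano ZnO arm 4 of 6 mice lay above every untreated mouse. The difference there was 0.63 ± 0.19, a level 1.55 times that of untreated mice (limma adjusted p = 0.0275). It was not called with formulation (0.35 ± 0.19, 0.163) or with micro ZnO (0.50 ± 0.19, 0.123). The nano ZnO call was lost without nano ZnO mouse 4, 5 or 6 or untreated mouse 1 (0.53 to 0.60, 0.0511 to 0.0726). With a clock score as a covariate the difference was -0.032 (0.985), but that score did not overlap between nano ZnO and untreated mice.

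Of the 3 sensors, Ern1 was called lower with formulation and with nano ZnO, and 0 of the other two were called. Ern1, which encodes the kinase and nuclease IRE1 that splices Xbp1 RNA, ranged from 6.92 through 7.13 to 7.22 with formulation, from 6.96 through 7.16 to 7.38 with nano ZnO, and from 7.42 through 7.50 to 7.70 in untreated mice. Neither sunscreen arm overlapped untreated mice. The differences were -0.41 ± 0.09 (limma adjusted p = 0.00194) and -0.36 ± 0.09 (0.0116), and with micro ZnO it was -0.30 ± 0.09 (0.0561). Eif2ak3, which encodes PERK, differed by -0.11 ± 0.11, -0.19 ± 0.11 and -0.05 ± 0.11 with formulation, micro ZnO and nano ZnO. Atf6 differed by -0.01 ± 0.11, 0.11 ± 0.11 and 0.10 ± 0.11 in the same order.

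Of the 6 transcription factors and ATF4-branch genes, 2 were called higher with formulation, 0 with micro ZnO and 1 with nano ZnO, and 0 were called lower. Atf4, the effector of the PERK branch, ranged from 7.38 through 7.57 to 7.86 with formulation and from 7.09 through 7.28 to 7.48 in untreated mice. Of 6 formulation mice 4 lay above every untreated mouse, and the difference was 0.33 ± 0.10 (limma adjusted p = 0.0171). It was -0.06 ± 0.10 with micro ZnO and 0.13 ± 0.10 with nano ZnO, and neither was called. Ppp1r15a, which encodes the phosphatase subunit GADD34 that reverses PERK signalling, ranged from 5.63 through 6.04 to 6.13 with formulation and from 5.51 through 5.65 to 5.81 in untreated mice. Its difference was 0.30 ± 0.09 (0.0207), a call lost without formulation mouse 2 (0.27, 0.0529), and it is named after its value was seen as the other gene higher with formulation.

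Ddit3, which encodes CHOP, missed the threshold with formulation (0.31 ± 0.12, limma adjusted p = 0.0533) and differed by 0.01 ± 0.12 with micro ZnO and 0.00 ± 0.12 with nano ZnO. Xbp1 ranged from 8.49 through 8.82 to 9.45 with formulation and from 8.72 through 8.94 to 9.17 in untreated mice, a difference of -0.10 ± 0.13 (0.619). It differed by -0.01 ± 0.13 with micro ZnO and -0.07 ± 0.13 with nano ZnO. A single probe set level does not separate spliced from unspliced Xbp1 RNA.

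Asns, the asparagine synthetase gene induced by ATF4, ranged from 4.18 through 4.42 to 5.43 with nano ZnO and from 3.87 through 3.97 to 4.01 in untreated mice. The 2 arms did not overlap, which was so for 1.74% of all probe sets in the higher direction. The difference was 0.56 ± 0.14 (limma adjusted p = 0.0126), and it was 0.20 ± 0.14 with formulation (0.291) and 0.32 ± 0.14 with micro ZnO (0.194). Asns was the dimmest of the 36 genes, with a mean of 3.98 over all arrays and untreated values below the virgin array medians, and it was the 1 gene left out when probe sets under the 40th percentile of mean signal were dropped. The value of 5.43 belongs to nano ZnO mouse 1, whose Atf4 value of 7.01 was the lowest of its arm. Trib3, a pseudokinase induced by ATF4 and CHOP, was called in 0 of the 3 arms.

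**Figure D4:**
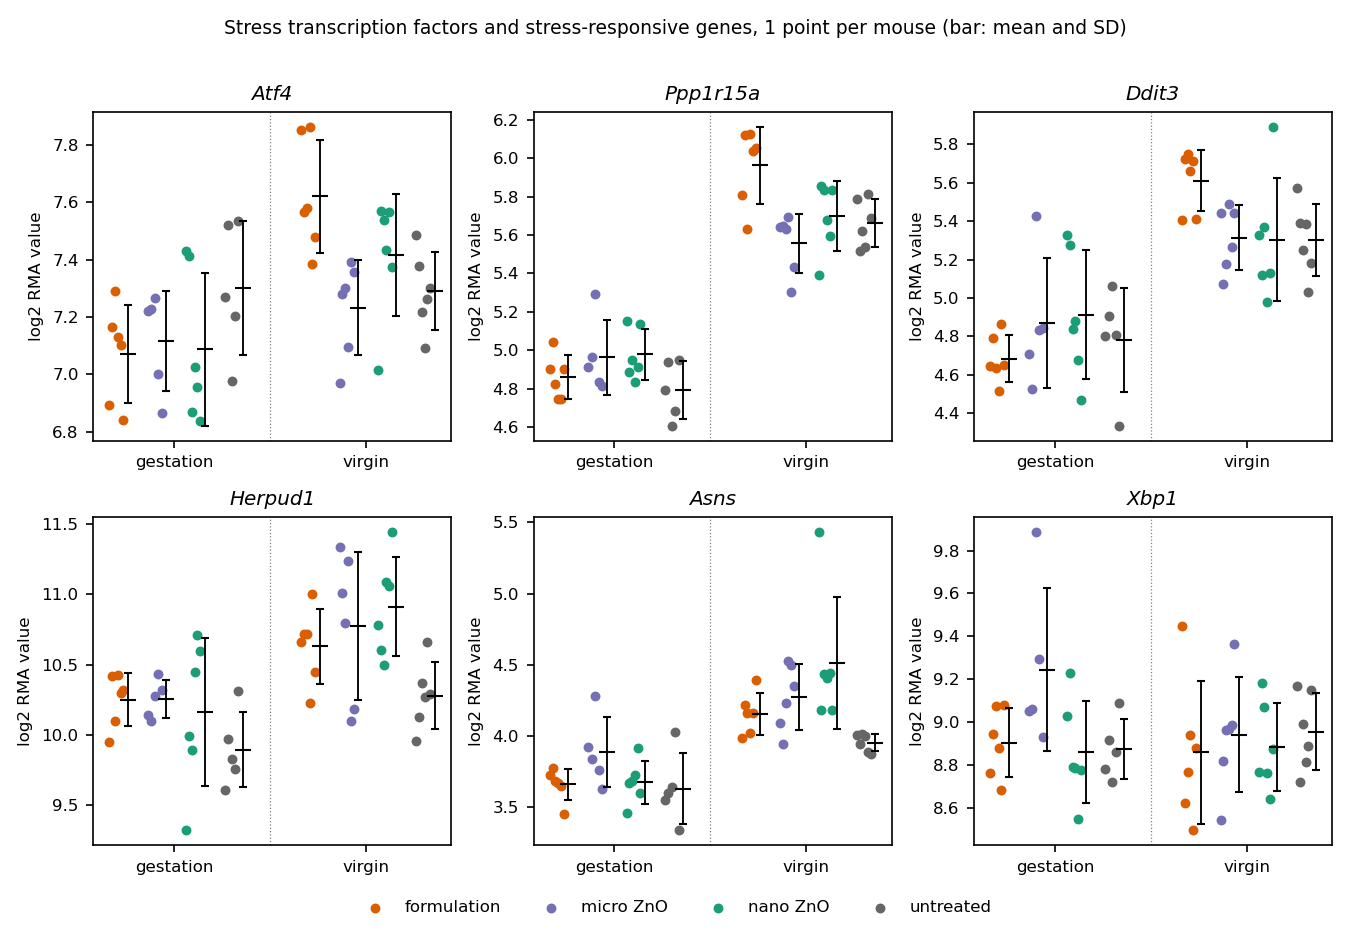
Log2 values of Atf4, Ppp1r15a, Ddit3, Herpud1, Asns and Xbp1 in every mouse (points), with the mean and SD of each arm (bars), for the gestation experiment on the left and the virgin experiment on the right of each panel. Virgin formulation mice sit highest for Atf4 and Ppp1r15a and virgin nano ZnO mice for Asns, while Xbp1 overlaps between all virgin arms.

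Other genes of the same pathways, from lists written with earlier results of these data known, were called mostly lower where they act in folding and translocation. Of 24 measured genes of translocation and glycosylation, 22 were called lower and 0 higher with formulation, 6 and 0 with micro ZnO, and 16 and 0 with nano ZnO. The largest with formulation were the signal peptidase subunits Spcs3 (-0.61 ± 0.09) and Spcs2 (-0.60 ± 0.12), the oligosaccharyltransferase subunit Rpn1 (-0.57 ± 0.12), Ssr3 (-0.55 ± 0.09), the signal recognition particle protein Srp72 (-0.53 ± 0.09) and Tram1 (-0.49 ± 0.09). Of 25 other ER folding genes, 15, 3 and 8 were called lower with formulation, micro ZnO and nano ZnO and 0 higher. Hspa13, an Hsp70 relative, differed by -0.93 ± 0.14 with formulation. Of 14 other degradation genes 5, 0 and 3 were called lower, and of 15 other sensors and regulators 5, 0 and 1, with 0 higher in either list. In the same order of arms 15.0%, 2.80% and 7.18% of all probe sets were called lower. Of the bright probe sets described above 41.0%, 7.95% and 25.1% were called lower. Creb3l3, the liver-rich relative of ATF6, was among the sensors and regulators lower with formulation (-0.41 ± 0.07).

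The 27 measured targets of ATF4 and the integrated stress response went both ways. Over all probe sets 11.5%, 1.63% and 4.77% were called higher with formulation, micro ZnO and nano ZnO, and 15.0%, 2.80% and 7.18% lower. With formulation 5 were called higher, led by Ddit4 (0.83 ± 0.22), Chac1 (0.37 ± 0.11) and Stc2 (0.34 ± 0.08), and 5 lower, among them the tRNA synthetases Tars (-0.63 ± 0.16) and Iars (-0.35 ± 0.09) and the serine hydroxymethyltransferase Shmt2 (-0.33 ± 0.08). With nano ZnO Stc2 (0.39 ± 0.08) and Eif4ebp1 (0.22 ± 0.07) were called higher and Tars (-1.06 ± 0.16) and Gars (-0.27 ± 0.08) lower. With micro ZnO 0 were called higher and Tars lower (-0.90 ± 0.16). Ddit4 also responds to glucocorticoids, and Stc2 is a secreted glycoprotein hormone.

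The calls were counted by promoter match. With formulation 6 of the 11 genes that hold an ERSE or ERSE-II match were called lower and 0 higher, against 10 lower and 2 higher of the 19 with neither match, and 3 lower of the 6 with no window given. With nano ZnO the counts were 4 lower and 1 higher of 11, 10 lower and 1 higher of 19, and 4 lower of 6. The gene higher among the 11 was Herpud1, the only gene of the 30 with a window to hold both an ERSE-II and a CARE match, and Asns, higher among the 19, holds a CARE match. Trib3, the other gene with a CARE match, was not called in any virgin sunscreen arm. Atf4 and Ppp1r15a, the genes higher with formulation, hold no CARE match. These matches were set beside the calls after the calls were seen. Differences between the shares called were not tested.

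Marker lists also held called genes in the same virgin arms. Over all probe sets 15.0%, 2.80% and 7.18% were called lower with formulation, micro ZnO and nano ZnO, and 11.5%, 1.63% and 4.77% higher. The hepatocyte list means were 12.23 to 12.29, 12.29 to 12.40 and 12.27 to 12.38 in that order, against 12.23 to 12.35 in untreated mice. Of 9 endothelial markers 6 were called lower in each sunscreen arm, with list means of 5.94 to 6.26 with formulation, 5.97 to 6.22 with micro ZnO, 5.99 to 6.27 with nano ZnO and 6.34 to 6.54 in untreated mice. Of 10 neutrophil markers 5, 0 and 4 were called higher, with list means of 4.19 to 5.03 with formulation, 3.84 to 4.38 with micro ZnO, 4.20 to 5.44 with nano ZnO and 4.03 to 4.15 in untreated mice. Of 6 stellate cell markers 2, 2 and 1 were called lower with formulation, micro ZnO and nano ZnO, with list means of 6.49 to 6.69, 6.33 to 6.55 and 6.47 to 6.74, against 6.55 to 6.81 in untreated mice. Of 2 measured erythroid markers Alas2 was called lower in each sunscreen arm, with list means of 5.58 to 5.86, 5.23 to 5.93 and 5.63 to 5.90 in the same order, against 5.83 to 6.40 in untreated mice. The macrophage and cholangiocyte lists had 0 markers called in any arm, and the B cell list had 1, lower with formulation. Pancreatic acinar cells, which are rich in the same ER genes, gave 0 markers higher in any arm. Their list means were 4.61 to 4.96 with formulation, 4.51 to 4.85 with micro ZnO, 4.64 to 4.81 with nano ZnO and 4.58 to 4.72 untreated. A clock score, the mean of 6 output genes such as Dbp and Per3 minus the mean of Arntl and Nfil3, after centring each gene, was -1.81 to 0.91 with formulation, -0.21 to 2.46 with micro ZnO, 0.86 to 1.56 with nano ZnO and -2.11 to -1.26 in untreated mice. With that score as a covariate 9 of the 36 genes were called with formulation and 0 with micro ZnO or nano ZnO, and the medians were -0.19, -0.04 and -0.12. Over all 23410 probe sets 3005, 34 and 9 were then called. The score of untreated mice overlapped neither the micro ZnO nor the nano ZnO arm, so clock score and arm cannot be told apart there. The part of these cell types in the ER results was not tested.

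The sunscreen with particles was next set against the sunscreen without. In virgin mice, against formulation, micro ZnO had 1 gene called higher and 2 lower, against 5.14% and 1.69% of all probe sets. Derl2 was higher with micro ZnO, at 8.51 through 8.65 to 8.68 against 8.08 through 8.34 to 8.62 with formulation, a difference of 0.27 ± 0.08 (limma adjusted p = 0.0383) that was lost without any of 7 arrays (0.22 to 0.27, 0.0603 to 0.108). Atf4 was lower, at 6.97 through 7.29 to 7.39 against 7.38 through 7.57 to 7.86, a difference of -0.39 ± 0.10 (0.0197), with 5 of 6 micro ZnO mice below every formulation mouse. Ppp1r15a was lower by the difference of -0.41 ± 0.09 (0.0114). For Hspa5 the difference was 0.23, with a 95% interval of -0.15 to 0.62, and for Hsp90b1 it was 0.19 (-0.05 to 0.43).

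Nano ZnO against formulation gave 0 called genes of 36, against 3.25% of all probe sets, with 4 of 36 at an unadjusted p under 0.05, against 17.6%. The difference was 0.06 for Hspa5 (95% interval -0.32 to 0.45), -0.08 for Hyou1 (-0.50 to 0.34) and 0.00 for Pdia6 (-0.24 to 0.25). The intervals do not show that the 2 arms were equal. Nano ZnO against micro ZnO, the test of particle size, gave 0 called genes, against 0% of all probe sets, and 1 of 36 at an unadjusted p under 0.05, against 4.72%. The difference there was -0.17 for Hspa5 (-0.55 to 0.22) and -0.34 for Hyou1 (-0.75 to 0.08).

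In pregnant mice 0 of the 36 genes were called in any comparison with limma. The share of all probe sets called was 0.0598% for formulation, 0.107% for micro ZnO and 0.0214% for nano ZnO against untreated, and 0% for micro ZnO against formulation, nano ZnO against formulation and nano ZnO against micro ZnO. At an unadjusted p under 0.05 there were 1, 2 and 10 of the 36 genes in the 3 comparisons with untreated mice, against 12.3%, 9.08% and 10.2% of all probe sets. There were 2, 0 and 4 in the other three, against 7.00%, 3.07% and 4.64%. The median differences from untreated were -0.13, -0.02 and -0.21 for formulation, micro ZnO and nano ZnO. The arrays of micro ZnO mice 3 and 4 stood apart from the rest over all probe sets, at -47.1 and -31.2 on the first principal component of the gestation experiment, where the other 20 arrays lay between -12.5 and 19.5. Without these 2 arrays 0 of the 36 genes were called with micro ZnO and their median difference was -0.09.

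The nano ZnO arm of pregnant mice was spread widely. Hspa5 was 10.05, 10.95, 10.78, 10.70, 9.89 and 10.29 in nano ZnO mice 1 to 6, against 11.07, 10.68, 10.52, 10.99 and 10.88 in untreated mice 1 to 5. Nano ZnO mice 1, 5 and 6 lay below every untreated mouse and the other three within their range. The difference was -0.38 ± 0.18 (limma adjusted p = 0.476). Sdf2l1 was 6.76, 8.06, 7.72, 7.82, 6.77 and 7.48 with nano ZnO, against 8.11, 7.61, 7.89, 8.72 and 7.47 in untreated mice, a difference of -0.53 ± 0.24 (0.473).

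Other genes followed throughout were not called either. Hspa5 differed by -0.22 with formulation and -0.06 with micro ZnO, or -0.20 without the 2 arrays that stood apart. Hsp90b1 differed by -0.16, -0.06 and -0.30 with formulation, micro ZnO and nano ZnO. Herpud1, the gene highest above untreated in virgin nano ZnO mice, differed by 0.36, 0.36 and 0.26 in that order of arms (limma adjusted p of 0.416, 0.586 and 0.589). Ssr1 differed by -0.29 ± 0.14 with formulation (0.394) and -0.39 ± 0.14 with nano ZnO (0.355), with 5 of 6 mice of each arm below every untreated mouse. Ddit3 differed by -0.10, 0.09 and 0.13.

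The same mice stood out across many genes. Among the 19 chaperone, isomerase, secreted and translocon genes, nano ZnO mouse 2 was the highest of its arm for 19, and mice 1 and 5 were the lowest for 11 and 8. In the gestation formulation arm mouse 5 was the lowest for 17, in the gestation micro ZnO arm mouse 3 was the highest for 12, and among untreated pregnant mice mouse 4 was the highest for 13 and mouse 3 the lowest for 11. Likewise in virgin mice, formulation mouse 1 was the highest for 15, micro ZnO mouse 1 was the lowest for 18 and mouse 6 the highest for 17, nano ZnO mouse 6 the highest for 17 and untreated mouse 1 the highest for 14. The genes are thus not independent of each other, and a single mouse weighs on many of them at once.

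Xbp1 was 9.05, 9.06, 9.89, 9.29 and 8.93 in gestation micro ZnO mice 1 to 5, against 8.78, 8.92, 8.72, 8.86 and 9.09 in untreated mice 1 to 5. The difference was 0.37 ± 0.14 (limma adjusted p = 0.406), with micro ZnO mice 3 and 4 above every untreated mouse. These are the 2 arrays that stood apart on the first principal component, and without them the difference was 0.14 (0.999). The sensors differed from untreated by 0.10 ± 0.14 for Ern1, -0.20 ± 0.16 for Eif2ak3 and 0.07 ± 0.11 for Atf6 in that arm. Of 10 neutrophil markers 3 were called higher there, beside 0.107% of all probe sets called in either direction. The neutrophil list means were 4.78 to 6.06 with micro ZnO, against 3.98 to 4.37 in untreated mice. The part of neutrophils in the Xbp1 value was not tested.

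The response was compared between the experiments as the gestation difference minus the virgin difference, a test in which pregnancy and the separate run cannot be told apart. Of the 36 genes, 1 was called for formulation, 0 for micro ZnO and 0 for nano ZnO, against 0.145%, 0.0470% and 0.0427% of all probe sets. At an unadjusted p under 0.05 there were 4, 4 and 3, against 10.2%, 7.43% and 6.26%. The called gene was Derl2, which differed between formulation and untreated by 0.05 ± 0.08 in pregnant mice and -0.47 ± 0.08 in virgin mice. Its levels in pregnant mice ran from 8.20 through 8.30 to 8.46 with formulation, against 8.30, 8.20, 8.14, 8.29 and 8.45 in untreated mice. The difference of responses was 0.52 ± 0.11 (limma adjusted p = 0.0359).

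The Derl2 call depended on single arrays. It was lost without virgin formulation mouse 2, 5 or 6, virgin untreated mouse 1, 4, 5 or 6, gestation formulation mouse 2, 3 or 4, or gestation untreated mouse 1, 2, 3 or 4, at 0.46 to 0.52 with an adjusted p of 0.0506 to 0.0938. For Hspa5 the difference of formulation responses was 0.35 (95% interval -0.20 to 0.90) and for Hyou1 0.47 (-0.19 to 1.13), and neither was called. Atf4 differed by -0.23 ± 0.12 in pregnant mice and 0.33 ± 0.10 in virgin mice with formulation, a difference of responses of -0.56 that was not called (adjusted p = 0.173).

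**Figure D5:**
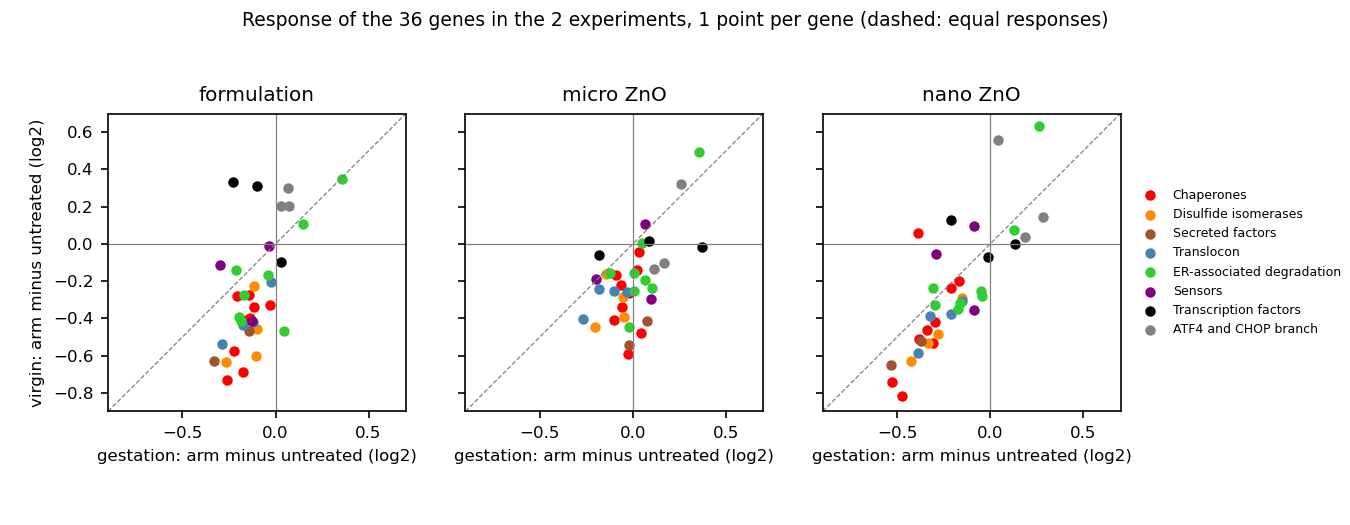
Log2 difference of each of the 36 genes from untreated mice in pregnant mice (horizontal axis) and in virgin mice (vertical axis), 1 panel per sunscreen arm, 1 point per gene coloured by role, with the dashed line marking equal responses. Most folding and translocon genes lie below the dashed line for formulation, and for nano ZnO they lie nearer to it, with Herpud1 at the upper right of each panel.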

How the data were processed

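RNA from 46 livers was measured on 46 arrays, and 0 columns of values were left out. The authors deposited log2 intensities. These were made with RMA, per the submitters' processing notes, with the version not given in the sources used here. RMA corrects background, equalises the distributions of probe values between arrays and sums up the probes of each set. The deposited probe set values still differed in width, with interquartile ranges of 2.76 to 3.09 in virgin mice. Precision is limited by the number of arrays. Of 35512 probe sets, 21789 had 1 gene symbol, 1621 several and 12102 none in the platform annotation, and the 23410 with a symbol were tested.

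Groups came from the sample titles. Each experiment was fitted on its own with 4 arms in limma 3.58.1 (R 4.3.3, lmFit and eBayes), and responses were compared in a joint model of 8 groups, two-sided, with Benjamini-Hochberg adjustment and 95% intervals. The 36 genes and all lists were chosen with earlier results of these data known. The naming rule took up to 12 called genes per comparison by size of change and allowed Hspa5, Hsp90b1, the sensors and the transcription factors whether called or not. These were not given in every comparison, and further genes were named after their values were seen. The fit was tested on simulated data of 23410 probe sets, where it found 87 of 100 probe sets changed 1.5-fold for virgin formulation, 76 of 100 for gestation micro ZnO and 61 of 100 for the difference of formulation responses. Each run also held 100 probe sets changed 2-fold, of which 99, 97 and 95 were found. False calls over each whole run were 7, 16 and 9. No other probe sets were changed, whereas 6203 were called in the data for virgin formulation. Simulated noise was independent between probe sets, unlike the mice that stood out across many genes. Changes smaller than 1.5-fold, the size of most differences here, were not simulated. Alternatives covered probe set filters, variance moderation, quantile normalization, array width, a clock score, a replicate block and leaving out arrays. Promoter windows were searched with Python 3.11.15. Scan dates and detection calls were not used here.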

Additional observations from a re-analysis of the deposited data

Results flagged for a closer look

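Of 288 gene and group combinations, 15 held a highest or lowest mouse that stood apart by Dixon's test (5.21%), and chance gives about 1 in 20. Gestation formulation mouse 5 was low for Hspa5 (10.22), Hsp90b1 (10.92), Dnajb11 (7.85) and Creld2 (6.97). Virgin nano ZnO mouse 6 was high for Sdf2l1 (7.44) and Creld2 (8.15). Virgin nano ZnO mouse 1 was high for Asns (5.43) and low for Atf4 (7.01). Single values stood apart for Pdia3 in gestation untreated mouse 4 (11.04), Pdia6 in gestation micro ZnO mouse 1 (10.44), P4hb in virgin nano ZnO mouse 4 (10.89), Syvn1 in gestation nano ZnO mouse 2 (8.36), Atf6 in virgin untreated mouse 1 (7.54), Ern1 in virgin untreated mouse 3 (7.70) and Ssr1 in virgin formulation mouse 5 (7.69).

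The response of Derl2 to formulation differed between pregnant and virgin mice by 0.52, which passed limma's test of the difference. For Atf4 the formulation responses ran in opposite directions, with every pregnant formulation mouse below and every virgin formulation mouse above the untreated mean of its own experiment. That difference of -0.56 did not pass the adjusted test (adjusted p = 0.173).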

How the results depend on the processing

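The counts of called genes depended most on array width and clock score, both of which themselves differed between virgin arms. With the interquartile range as a covariate, 0 genes were called for formulation (21 without it), 0 for micro ZnO (5) and 4 for nano ZnO (20) against untreated virgin mice, and 0 for the difference of formulation responses (1). With the clock score the counts were 9, 0 and 0, and 6 for micro ZnO against formulation (3). Under the clock score the nano ZnO differences of Pdia3 (0.10) and Herpud1 (-0.032) turned sign. Among differences not called, those of Hspa5 turned with micro ZnO (0.17) and nano ZnO (0.06), those of Hsp90b1 (0.11) and Atf4 (0.26) with micro ZnO, and those of Xbp1 with formulation (0.12), micro ZnO (0.49) and nano ZnO (0.48), and none was called under the clock score. For micro ZnO the count was 0 over all probe sets, 8 with dim probe sets left out and 3 after quantile normalization. The cause was not tested. Same-numbered mice did not deviate together throughout (correlations of -0.35 to 0.20 in virgin and -0.15 to 0.23 in pregnant mice), so the numbers were not taken to pair them. The replicate block gave 20, 0 and 17 for formulation, micro ZnO and nano ZnO and 0 for the difference of formulation responses.

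Leaving out each array in turn gave 18 to 26 calls for formulation, 0 to 7 for micro ZnO and 15 to 25 for nano ZnO against untreated virgin mice, 2 to 4 for micro ZnO against formulation, 0 to 1 for nano ZnO against formulation (1 without formulation mouse 3 or nano ZnO mouse 6) and 0 to 1 for the difference of formulation responses. All other comparisons gave 0 under each of these.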
